A study of Rattus norvegicus with 16 samples.

Results

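The orphan, lipid and amine G protein-coupled receptors were taken from a rat expression array by symbol: every probe cluster with a single gene symbol that starts with Gpr and a digit, or with Lpar, S1pr, Ptger, Adora, Hrh or Htr. The rule matched 123 rows. Keeping the row with the highest mean over the arrays for each symbol left 120 members among the 20667 genes with a single symbol. They were 79 Gpr symbols, 14 serotonin receptor symbols (Htr), 6 lysophosphatidic acid receptors (Lpar), 5 sphingosine 1-phosphate receptors (S1pr) and 4 each of the prostaglandin E (Ptger), adenosine (Adora) and histamine (Hrh) receptors. The other 4 symbols that fit the letters, Htra1 to Htra4, belong to the HtrA serine proteases and are not receptors, and Htr3a and Htr3b are subunits of a serotonin-gated ion channel. The Gpr symbols too include proteins that are not cell surface receptors, among them Gpr137, Gpr137b and the lysosomal Gpr155.

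The study compared antigen-presenting cells sorted from the thymus and spleen of untreated male Lewis rats on 16 Clariom S arrays, 2 for each of 8 groups. In each organ the groups were CD103- DC-like cells (CD45+ MHCII+ CD103- CD45R- CD172a+), HIS36+ macrophages (CD45+ CD45R- HIS36+, where the HIS36 antibody binds CD163), cDC2 (CD45+ MHCII+ CD103+ CD172a+) and cDC1 (CD45+ MHCII+ CD103+ CD172a-), the last 2 being the type 2 and type 1 conventional dendritic cells. All groups share the strain and the sex, and the labels used here give no age, no genotype change and no treatment. Nothing in the labels says that the 2 arrays of a group came from separate rats, so each p-value reflects the spread between these samples alone, which may be technical. Splenic dendritic cells were enriched on a density gradient, thymic dendritic cells with MHCII beads and macrophages with CD11b/c beads before the sort, so that organ or cell type and the way of isolation cannot be told apart. In sorted bulk RNA, fewer cells of a type and less RNA per cell cannot be told apart either.

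G protein-coupled receptors sit in the cell membrane and pass a ligand outside the cell on to a heterotrimeric G protein inside it. Those coupled to Gs raise cyclic AMP, those coupled to Gi lower it, and others act through Gq or through the proteins that reshape the cytoskeleton. In dendritic cells and macrophages, lipid receptors such as Gpr183, the S1pr and the Lpar family are known for positioning and migration, while the adenosine, prostaglandin E and histamine receptors are known for tuning cytokine output through cyclic AMP. An orphan receptor is a member of the family with no agreed ligand.

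The deposited values are log2 signals, so a difference of 1 is a 2-fold change. Probe clusters differ in how brightly they respond, and levels are therefore compared between groups for the same receptor and never between receptors. The background level was set at 5.79, the 95th percentile of the 1158 olfactory receptor clusters on the array, genes that immune cells are not expected to use (their median was 4.15). By that measure 61 of the 120 members (50.8%) had at least 1 group mean above background, against 59.9% of all clusters, and 30 members were above it in every group. The counts by family were 38 of 79 Gpr symbols, 4 of 6 Lpar, all 5 S1pr, 2 of 4 Ptger, 3 of 4 Adora, 1 of 4 Hrh, 5 of 14 Htr and 3 of 4 Htra. A limma F test over the 8 groups called 67 members (55.8%) at an adjusted p under 0.05, close to the 57.4% of all 23188 clusters, and 11 of these 67 were at or below background in every group.

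**Figure D1:**
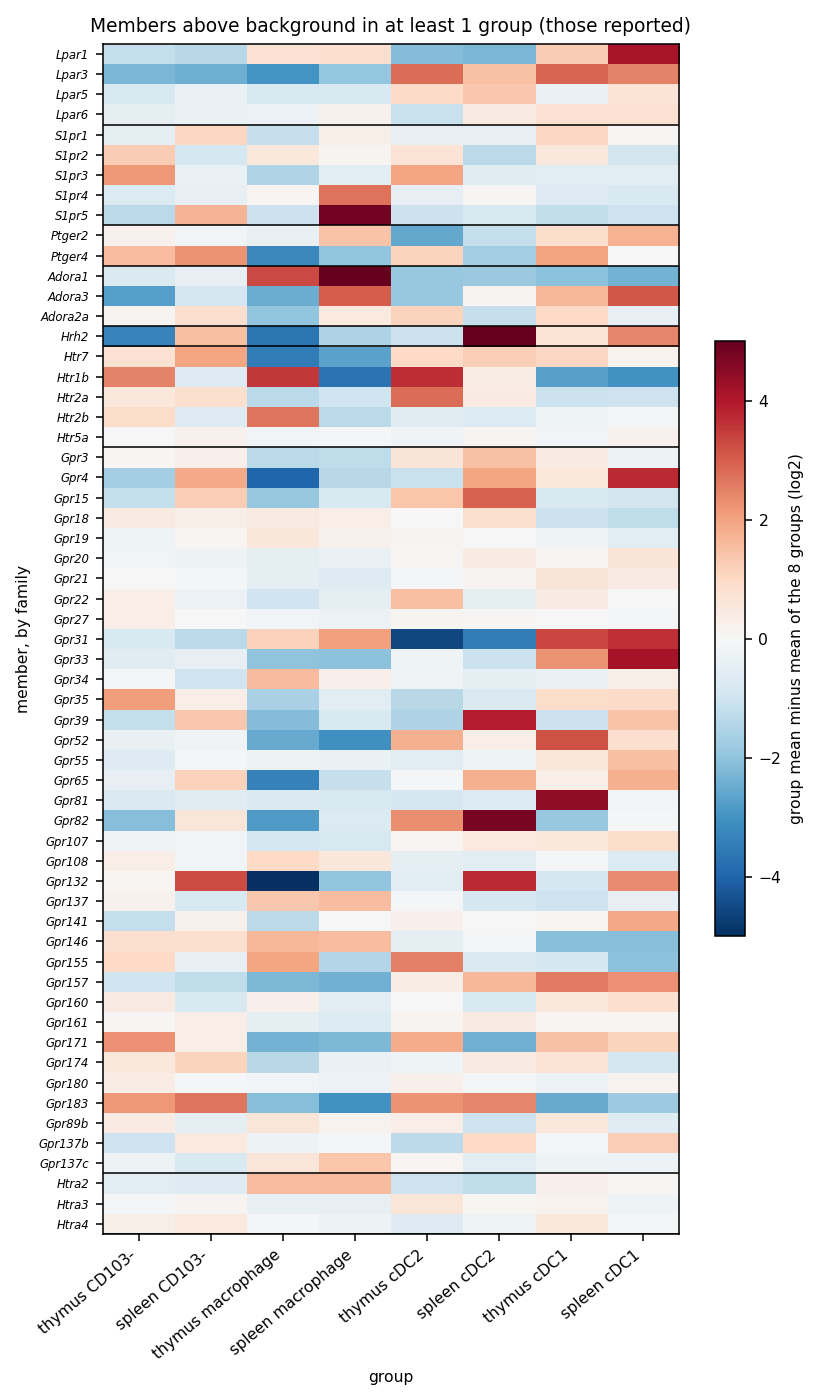
Each row is 1 of 59 members above background in at least 1 group, each column is a group, and the colour is the group mean minus the mean of the 8 groups on the log2 scale. The values run between -6.04 and 5.99 and colours stop at 5 either way. The Lpar3 row is red in the cDC2 and cDC1 columns and blue in the CD103- and macrophage columns of both organs, and the S1pr5 row is darkest in splenic macrophages.

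The defining genes followed the gates. Xcr1, a cDC1 receptor for chemokine, averaged 16.65 in thymic and 17.50 in splenic cDC1 and at most 11.54 elsewhere. Cd163 averaged 16.56 in thymic and 15.97 in splenic macrophages and at most 11.34 in any dendritic cell group, and Itgae, which encodes CD103, averaged 6.02 in thymic and 7.93 in splenic CD103- cells against 13.27 to 13.66 in cDC2. Markers of other cells were present in some groups. In splenic macrophages the hemoglobin gene Hbb averaged 17.89 (at most 6.58 elsewhere), and the NK cell genes Gzma, Prf1 and Ncr1 averaged 8.09, 7.0 and 6.03 and were at or below background in the other 7 groups. The granulocyte gene S100a8 averaged 17.50 in thymic and 16.36 in splenic macrophages and at most 4.81 in the dendritic cell groups. In thymic macrophages 4 of 6 mast cell and basophil genes and 2 of 4 platelet genes were above background (2 and 2 in splenic). So were 5 of 6 eosinophil and neutrophil genes (4 in splenic). Thymic macrophages averaged 10.09 for mast cell Cpa3, 10.04 for eosinophil Prg2 and 16.15 for platelet Pf4. In dendritic cell groups the highest means were 4.83, 8.26 and 8.87. The part of such RNA in macrophage levels of Gpr34, Htr1b and Htr2b was not tested. The thymocyte gene Rag1 averaged 10.02 to 11.91 in the 4 thymic groups and 6.83 to 7.45 in the 4 splenic groups. Of 11 T cell and thymocyte genes, 8 were higher and 1 lower in thymic than in splenic cDC1, with the same counts in macrophages. In cDC2 7 were higher and none lower, and in CD103- cells 4 were higher and 1 lower. Of all clusters, 6.69% were higher and 5.38% lower in thymic than in splenic cDC1, and 6.21% and 7.53% in macrophages. The shares were 7.99% and 6.6% in cDC2, and 7.12% and 5.27% in CD103- cells. The mean over 8 B cell genes was 6.45 to 6.48 in thymic macrophage arrays against 9.35 to 9.73 in splenic ones (7 of the 8 lower, none higher). It was 8.84 to 9.52 in thymic cDC1 arrays against 7.44 to 8.11 in splenic ones (6 higher, 1 lower). The antigen receptor gene Cd79a averaged 6.95 in thymic against 11.90 in splenic macrophages.

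CD103- cells and cDC2 share CD172a and differ by gate in CD103. In the thymus 21 members differed between them (17.5% of members, against 10.3% of all clusters): 9 were higher and 12 lower in CD103- cells, where 5.34% and 4.91% of all clusters were. In the spleen 17 members differed (14.2%, against 9.02% of all clusters), 7 of them higher and 10 lower (4.81% and 4.21% of all clusters). Against cDC1, CD103- cells differed in 32 members in the thymus (26.7%, against 17.7% of all clusters), 14 higher and 18 lower (8.66% and 9.09% of all clusters), and in 35 members in the spleen (29.2%, against 18.1%), 17 higher and 18 lower (8.63% and 9.47%). cDC2 and cDC1 differed in 28 members in the thymus (23.3%, against 13.7%), 11 higher and 17 lower in cDC2 (6.75% and 6.93%), and in 31 in the spleen (25.8%, against 16.1%), 17 higher and 14 lower (7.86% and 8.21%).

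Contrasts with macrophages called more members, at shares close to those of all clusters or below them. CD103- cells differed from macrophages in 40 members in the thymus (33.3%, against 37.9% of all clusters), 25 higher and 15 lower (19.5% and 18.4%), and in 44 in the spleen (36.7%, against 40.2%), 29 higher and 15 lower (21.1% and 19.1%). Macrophages differed from the mean of the 3 dendritic cell groups in 58 members in the thymus (48.3%, against 46.9%), 21 higher and 37 lower (21.5% and 25.4%), and in 55 in the spleen (45.8%, against 48.3%), 16 higher and 39 lower (21% and 27.4%). Members at or below background in every group made up 9 of these 58 calls in the thymus and 13 of these 55 in the spleen. They made up 4 of the 40 and 5 of the 44 calls between CD103- cells and macrophages. With quantile normalization 22 members were higher and 33 lower in thymic macrophages than in dendritic cells, and 16 and 32 in splenic ones. The median difference between macrophages and dendritic cells was -0.23 for the members and -0.13 for all clusters in the thymus, and -0.30 and -0.19 in the spleen.

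Between the organs, 23 members differed in CD103- cells (19.2%, against 12.4% of all clusters), 9 higher and 14 lower in the thymus (7.12% and 5.27%). The counts were 27 in macrophages (22.5%, against 13.7%), with 7 higher and 20 lower (6.21% and 7.53%), and 26 in cDC2 (21.7%, against 14.6%), with 12 higher and 14 lower (7.99% and 6.6%). In cDC1 23 members differed (19.2%, against 12.1%), 10 higher and 13 lower (6.69% and 5.38%), and without replicate 1 of thymic cDC1 that count was 15. The difference between CD103- cells and cDC2 was itself unequal in the 2 organs for 11 members (9.17%, against 3.55% of all clusters), with 3 above and 8 below (1.43% and 2.12%), thymus minus spleen. That count was 7 without replicate 2 of thymic CD103- cells and 5 without replicate 2 of thymic cDC2. The difference between macrophages and dendritic cells was unequal for 22 members (18.3%, against 11.5%), with 8 above and 14 below (4.26% and 7.22%), and for 14 without replicate 2 of thymic macrophages. Contrasts within an organ share groups with each other, so their counts are not independent.

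Gpr82, an orphan receptor, was highest in cDC2 of both organs. It read 5.99 and 5.31 in thymic CD103- cells, 5.50 and 4.35 in thymic macrophages, 9.88 and 10.25 in thymic cDC2 and 5.37 and 6.36 in thymic cDC1. In the spleen it read 8.82 and 7.90 in CD103- cells, 7.07 and 7.09 in macrophages, 11.76 and 13.23 in cDC2 and 7.55 and 7.77 in cDC1. All 4 cDC2 arrays lay above all 12 others, and every splenic group lay above its thymic counterpart. From the highest mean down, the order was splenic cDC2, thymic cDC2, splenic CD103- cells, splenic cDC1, splenic macrophages, thymic cDC1, thymic CD103- cells and thymic macrophages, and arrays overlapped only among the last 3. Where the dimmer group is at or below background, a difference is given here as a bound with that group set to 5.79, with no standard error and with the fit's adjusted p. The CD103- minus cDC2 difference was -4.28 or below in the thymus (adjusted p = 2.59e-06) and -4.13 ± 0.46 in the spleen (SE; adjusted p = 5.48e-06). The cDC2 minus cDC1 difference was 4.20 ± 0.46 in the thymus (adjusted p = 2.31e-06) and 4.83 ± 0.46 in the spleen (adjusted p = 3.35e-07). Gpr82 was lower in the thymus by -2.43 ± 0.46 in cDC2 (adjusted p = 0.000901) and by -2.57 or below in CD103- cells (adjusted p = 0.000501).

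**Figure D2:**
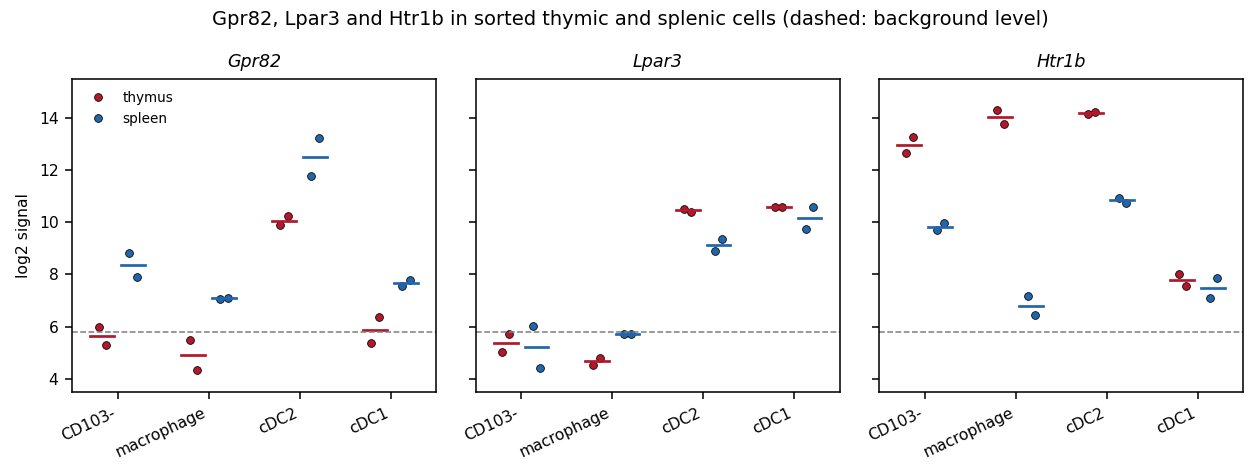
Points are the log2 signals of single arrays (2 per group), short lines are group means and the dashed line is the background level of 5.79, with thymus in red and spleen in blue. Gpr82 peaks in cDC2 of both organs, Lpar3 has group means above background only in cDC2 and cDC1 (1 splenic CD103- array reads 6.04), and Htr1b is above 12 in 3 thymic groups and at most 8.02 in cDC1 of either organ.

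Gpr82 lies beside another member. In the RefSeq annotation of the rat assembly GRCr8, Gpr82 and Gpr34 are neighbours on the minus strand of chromosome X, both within the span of Cask, a scaffold protein gene on the plus strand. Gpr34, a receptor for lysophosphatidylserine, was highest in thymic macrophages and had another pattern. It read 12.92 and 13.12 in thymic CD103- cells, 14.55 and 14.85 in thymic macrophages, 12.77 and 13.09 in thymic cDC2 and 12.71 and 12.83 in thymic cDC1, and in the spleen 11.71 to 13.88 over the 8 arrays. The thymic macrophage arrays lay above all others, with a macrophage minus dendritic cell difference of 1.79 ± 0.28 in the thymus (adjusted p = 3e-05). The Pearson correlation of Gpr82 and Gpr34 over the 8 group means was -0.53, a description only. Cask averaged 10.44 in thymic and 10.71 in splenic cDC2 and 8.41 to 10.23 in the other groups.

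The windows from 250 bases before to 50 bases after the RefSeq starts of the 2 neighbours are shown because their genes lie side by side and had different patterns. Capitals mark matches to 5 motifs searched on both strands: PU.1 (GAGGAAGT), an ETS-IRF composite (GGAA and GAAA with 2 bases of any kind between), an interferon response element (GAAA and GAAA with 2 bases between), AP-1 (TGANTCA) and Runx (TGTGGTT). The composite and the interferon element share letters and can overlap. The Gpr82 window (GRCr8, chrX:11757477-11757776, minus strand) holds 2 composite matches, both in reverse, and the Gpr34 window (chrX:11785787-11786086, minus strand) holds none of the 5.
Gpr82: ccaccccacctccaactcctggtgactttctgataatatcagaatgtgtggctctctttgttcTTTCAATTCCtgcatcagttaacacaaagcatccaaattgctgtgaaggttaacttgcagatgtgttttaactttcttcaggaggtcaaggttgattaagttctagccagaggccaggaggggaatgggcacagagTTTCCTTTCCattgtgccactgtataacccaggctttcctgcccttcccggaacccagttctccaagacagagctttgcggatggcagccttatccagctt
Gpr34: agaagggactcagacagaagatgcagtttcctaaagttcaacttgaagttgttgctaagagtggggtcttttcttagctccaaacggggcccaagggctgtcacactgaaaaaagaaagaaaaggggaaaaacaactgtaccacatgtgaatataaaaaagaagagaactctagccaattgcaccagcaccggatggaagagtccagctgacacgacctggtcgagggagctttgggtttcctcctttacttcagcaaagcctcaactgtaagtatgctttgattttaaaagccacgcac
A composite match stands in 2.94% of all 33469 windows of this length, and 29 windows (0.0866%) hold at least 2. Among the 48 members above background that have a window, Gpr82 was the only 1 with a composite match (2.08%). PU.1 matched 4 of the 48 (8.33%, against 2.42% of all windows), the interferon element 2 (4.17% against 3.92%), AP-1 3 (6.25% against 7.33%) and Runx 3 (6.25% against 5.57%). A match is a run of letters, not a shown binding site. The genes whose group means were most like those of Gpr82, among 6001 genes that varied by at least 2 log2 units, were Vegfc (r = 0.974), Orc1 (0.971), Dmd (0.970), Fgf18 (0.959) and LOC100911727 (0.956), over 8 group means and given as a description. Part of this likeness lies near or below background. The group means ran from 4.71 to 7.04 for Vegfc, 5.22 to 7.56 for Dmd and 5.04 to 8.56 for Fgf18. Orc1 was above background only in cDC2 (6.11 in thymic and 7.30 in splenic).

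Lpar3, a receptor for lysophosphatidic acid, had group means above background in the CD103+ populations alone. It read 5.02 and 5.73 in thymic CD103- cells, 4.53 and 4.81 in thymic macrophages, 10.51 and 10.41 in thymic cDC2 and 10.57 and 10.59 in thymic cDC1. Splenic values were 6.04 and 4.41 in CD103- cells, 5.70 and 5.72 in macrophages, 8.90 and 9.34 in cDC2 and 9.73 and 10.59 in cDC1. The 8 arrays of cDC2 and cDC1 lay between 8.90 and 10.59, and the other 8 did not pass 6.04. In the order of the means, thymic cDC2 and splenic cDC1 overlapped, and so did the 4 groups at or below background. The CD103- minus cDC2 difference was -4.67 or below in the thymus (adjusted p = 9.11e-08) and -3.33 or below in the spleen (adjusted p = 2.09e-06), and the CD103- minus cDC1 difference was -4.79 or below in the thymus (adjusted p = 1.55e-08) and -4.37 or below in the spleen (adjusted p = 3.3e-08). cDC2 and cDC1 did not pass the test against each other in either organ. The gene most like Lpar3 across the group means was Itgae (r = 0.969 over 8 groups), whose product CD103 was used to sort the cells, so that this likeness follows a difference the gates imposed. Sft2d2 (0.957), Mmp28 (0.956), the fatty acid receptor gene Ffar4 (0.951) and Msto1 (0.949) came next.

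The other lysophosphatidic acid receptors had other patterns. Lpar1 was highest in cDC1: it read 4.85 and 5.54 in thymic CD103- cells, 6.91 and 7.36 in thymic macrophages, 4.00 and 4.45 in thymic cDC2 and 7.43 and 7.87 in thymic cDC1. In the spleen it read 5.20 and 4.80 in CD103- cells, 7.52 and 6.87 in macrophages, 4.02 and 4.19 in cDC2 and 10.49 and 10.53 in cDC1. Lpar1 was thus at or below background in CD103- cells and cDC2 of both organs. Between cDC2 and cDC1 the difference was -1.86 or below in the thymus (adjusted p = 1.15e-07) and -4.72 or below in the spleen (adjusted p = 3.2e-11), and thymic cDC1 were lower than splenic cDC1 by a log2 difference of -2.86 ± 0.29 (adjusted p = 1.76e-06). Lpar5 was lower in CD103- cells than in cDC2 in the thymus, at 9.33 and 9.43 in CD103- cells against 11.20 and 11.12 in cDC2 (-1.78 ± 0.36, adjusted p = 0.00252). The same comparison in the spleen gave -1.69 (adjusted p = 0.00436), and -1.09 with an adjusted p of 0.113 without replicate 2 of splenic cDC2 and -1.53 with an adjusted p of 0.0517 without replicate 2 of splenic CD103- cells. Lpar6 read 12.75 to 14.97 over all 16 arrays and was lowest in thymic cDC2, with a cDC2 minus cDC1 difference of -1.91 ± 0.30 in the thymus (adjusted p = 0.00016). Lpar2 (group means 3.99 to 4.80) and Lpar4 (4.60 to 5.77) were at or below background in every group.

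All 5 sphingosine 1-phosphate receptors were above background somewhere, and 3 of them in few groups. S1pr5, which is known in mice from NK cells and nonclassical monocytes, read 10.54 and 10.83 in splenic macrophages and 8.45 and 6.59 in splenic CD103- cells, against 4.51 to 5.34 over the 12 other arrays. The macrophage minus dendritic cell difference in the spleen was at least 4.32 (adjusted p = 7.09e-10) and the thymus minus spleen difference in macrophages was -4.89 or below (adjusted p = 9.12e-09). In splenic CD103- cells S1pr5 was higher than in cDC2 by at least 1.73 (fitted difference 2.50, adjusted p = 0.000316), and the fitted difference was 1.57 without replicate 1 of splenic CD103- cells, the brighter array. S1pr4 read 9.26 and 9.46 in splenic macrophages, against 5.72 to 6.93 over the other 14 arrays, with a macrophage minus dendritic cell difference of 3.09 ± 0.20 in the spleen (adjusted p = 7.05e-10). All 4 measured NK cell markers were above background in splenic macrophages and 1 of 4 in each other group, with a mean over the 4 of 8.44 to 8.51 in splenic macrophage arrays against 5.49 to 7.88 in all others. The B cell genes were higher in splenic than in thymic macrophages as given above. The mean over 6 monocyte genes was 13.72 in splenic CD103- cells and 13.63 in splenic macrophages. It was 13.09 and 11.97 in their thymic counterparts, and at most 8.55 in cDC2 and cDC1. Of these genes, Vcan was above background in the 2 splenic groups alone (7.46 and 7.76), and the other 5 also in their thymic counterparts. Of 4 plasmacytoid dendritic cell genes, 3 were higher and none lower in splenic CD103- cells than in splenic cDC2 (4.81% and 4.21% of all clusters). Among them, Siglech averaged 9.01 in splenic CD103- cells, 7.26 in splenic cDC2 and at most 5.26 in the other groups. The part of NK cell, B cell, monocyte or plasmacytoid cell RNA in the S1pr5 and S1pr4 levels was not tested. Nor was that of plasmacytoid cell RNA in other receptors called higher in splenic CD103- cells. In splenic CD103- cells, where S1pr5 was also above background, Gzma, Prf1 and Ncr1 averaged 4.21, 5.11 and 5.44, at or below background. The NK cell gene Klrk1 averaged 14.63 there, against 12.80 in splenic macrophages. Klrk1 was above background in every group (means 8.80 to 15.33) and highest in splenic cDC1.

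S1pr3 was confined above background to thymic CD103- cells and thymic cDC2. It read 7.75 and 7.96 in thymic CD103- cells and 7.82 and 7.50 in thymic cDC2, against at most 5.43 on the other 12 arrays. The thymus minus spleen difference was at least 2.07 in CD103- cells (adjusted p = 1.51e-06) and at least 1.87 in cDC2 (adjusted p = 4.47e-07). S1pr2 was higher in the thymus in all 3 dendritic cell groups, at 8.48 and 9.11 in thymic against 6.68 and 6.63 in splenic CD103- cells (2.14 ± 0.27, adjusted p = 2.87e-05), 8.48 and 7.92 in thymic against 6.22 and 6.15 in splenic cDC2 (2.02 ± 0.27, adjusted p = 3.19e-05) and 7.67 and 8.44 in thymic against 6.54 and 6.71 in splenic cDC1 (1.43 ± 0.27, adjusted p = 0.00131). S1pr1, the receptor by which lymphocytes leave lymphoid organs, ranged between 4.60 and 7.26. It was higher in splenic CD103- cells, at 7.10 and 6.86, than in splenic cDC2, at 5.54 and 5.58, by at least 1.19 (adjusted p = 0.0017), and lower in thymic CD103- cells than in thymic cDC1 by a difference of -1.20 or below (adjusted p = 0.000438).

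**Figure D3:**
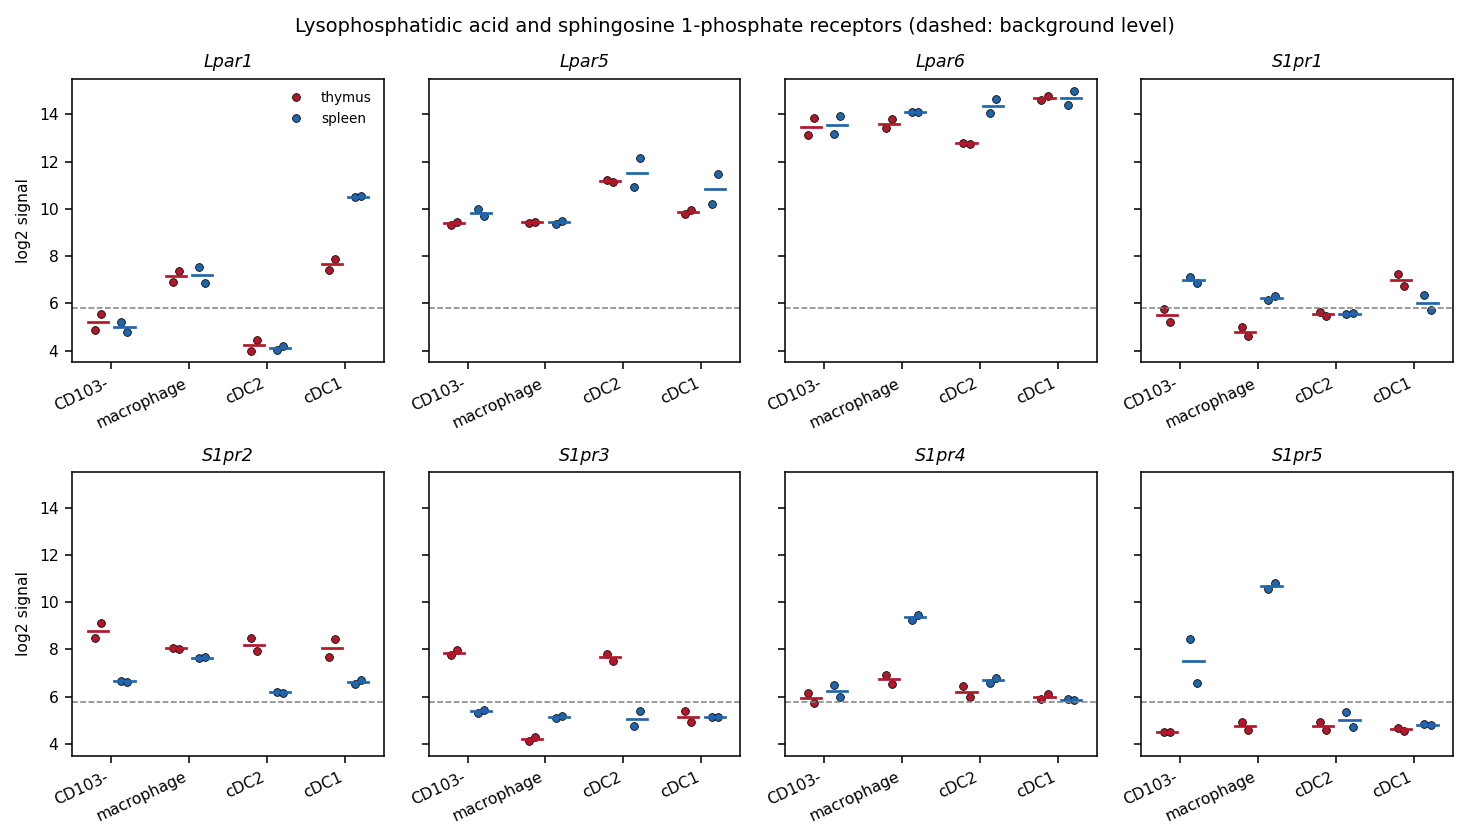
Points are the log2 signals of single arrays for 3 lysophosphatidic acid and 5 sphingosine 1-phosphate receptors, short lines are group means and the dashed line is the background level, with thymus in red and spleen in blue. S1pr5 stands above background in splenic macrophages and splenic CD103- cells, S1pr3 in thymic CD103- cells and thymic cDC2, and Lpar1 reaches 10.53 in splenic cDC1.

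Htr1b, a Gi-coupled serotonin receptor, was high in the thymus in every population except cDC1. It read 12.65 and 13.26 in thymic CD103- cells, 14.30 and 13.77 in thymic macrophages, 14.14 and 14.22 in thymic cDC2 and 8.02 and 7.54 in thymic cDC1. On the splenic arrays the signal was 9.70 and 9.96 in CD103- cells, 7.18 and 6.43 in macrophages, 10.95 and 10.75 in cDC2 and 7.09 and 7.85 in cDC1. In the order of the means thymic cDC2 and thymic macrophages overlapped at the top, and thymic cDC1, splenic cDC1 and splenic macrophages at the bottom. The thymus minus spleen difference was 3.12 ± 0.31 in CD103- cells (adjusted p = 1.88e-06), 7.23 ± 0.31 in macrophages (adjusted p = 2.76e-11) and 3.33 ± 0.31 in cDC2 (adjusted p = 4.24e-07), and cDC1 did not pass that test. The cDC2 minus cDC1 difference was 6.40 ± 0.31 in the thymus (adjusted p = 8.97e-11) and 3.38 ± 0.31 in the spleen (adjusted p = 2.51e-07). CD103- cells and cDC2 differed less, by -1.23 in thymic cells (adjusted p = 0.015) and by -1.02 in splenic cells (adjusted p = 0.0494). The thymic call was lost when replicate 1 of CD103- cells (-0.92) or either replicate of cDC2 (-1.26 and -1.19) was left out, and the splenic call when any of its 4 arrays was (-1.15 to -0.89). Stxbp5 (r = 0.953), St18 (0.950), the member Gpr155 (0.947), Uhrf1bp1 (0.848) and Kcnt2 (0.847) had the most similar group means, over 8 groups and as a description.

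Of the other 13 Htr symbols, 4 were above background. Htr7, a Gs-coupled serotonin receptor, was above background in every group and lower in macrophages, at 6.40 and 6.28 in thymic macrophages against 10.43 to 10.97 in thymic dendritic cells, and at 6.85 and 7.43 in splenic macrophages against 9.99 to 12.01 in splenic dendritic cells. The difference was -4.42 ± 0.20 in the thymus (adjusted p = 3.33e-12) and -3.81 ± 0.20 in the spleen (adjusted p = 2.74e-11), and a 2nd Htr7 cluster, not used above, had lower means in the macrophages of both organs too. Of the Gq-coupled receptors, Htr2a was above background in 3 groups and Htr2b in 4. Htr2b read 6.98 and 7.14 in thymic CD103- cells, 8.74 and 8.95 in thymic macrophages, 5.76 and 5.36 in thymic cDC2 and 6.09 and 5.76 in thymic cDC1, and 4.68 to 6.11 in the spleen. Its thymus minus spleen difference was at least 3.05 in macrophages (adjusted p = 1.15e-09) and at least 1.27 in CD103- cells (adjusted p = 0.000174). Htr2a read 8.13 and 8.18 in thymic cDC2, above all other arrays, with a cDC2 minus cDC1 difference of at least 2.37 in the thymus (adjusted p = 1.16e-06). Thymic CD103- cells read 6.78 and 5.00 for Htr2a, and their difference from cDC2 of -2.27 became -3.15 or -1.38 when replicate 1 or replicate 2 of thymic CD103- cells was left out (adjusted p = 0.000687 with all arrays). Htr5a lay between 5.24 and 6.36 and did not vary by the F test (adjusted p = 0.761).

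The genes of serotonin handling in the list of ligand synthesis and removal did not share 1 pattern. The list holds Slc6a4, the serotonin transporter, which averaged 8.48 in thymic CD103- cells, 6.25 in thymic macrophages, 11.88 in thymic cDC2 and 7.51 in thymic cDC1, and 6.35 to 6.62 in the 4 splenic groups. Its cDC2 thymus minus spleen difference was 5.25 ± 0.28 (adjusted p = 4.82e-10) and its CD103- minus cDC2 difference was -3.40 ± 0.28 in the thymus (adjusted p = 1.86e-07). Tph1, which makes serotonin from tryptophan, averaged 4.78 in thymic CD103- cells against 7.46 in thymic cDC2, a CD103- minus cDC2 difference of -1.67 or below (adjusted p = 3.79e-06). Maoa, which breaks serotonin down, averaged 8.91 in thymic CD103- cells against 7.97 in thymic cDC2, a difference that did not pass the test (0.94 ± 0.39, adjusted p = 0.16). Ddc, which completes serotonin synthesis, was at or below background in all 8 groups (means 4.43 to 5.26).

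Gpr183, the receptor for oxysterols made from cholesterol by Ch25h and Cyp7b1 and known in mice for placing cDC2 in the spleen, was high in CD103- cells and cDC2 alike. It read 13.39 and 13.32 in thymic CD103- cells, 9.03 and 9.09 in thymic macrophages, 13.65 and 13.26 in thymic cDC2 and 8.99 and 8.37 in thymic cDC1. In the spleen it read 14.33 and 13.38 in CD103- cells, 8.11 and 8.24 in macrophages, 13.92 and 13.35 in cDC2 and 9.39 and 9.35 in cDC1. The 8 arrays of CD103- cells and cDC2 lay at or above 13.26, and the 8 others at or below 9.39. The CD103- minus cDC1 difference was 4.67 ± 0.30 in the thymus (adjusted p = 1.43e-09) and 4.49 ± 0.30 in the spleen (adjusted p = 2.34e-09), and the cDC2 minus cDC1 difference was 4.78 ± 0.30 in the thymus (adjusted p = 1.93e-09) and 4.26 ± 0.30 in the spleen (adjusted p = 6.34e-09). CD103- cells and cDC2 did not pass the test against each other, and neither did thymus against spleen in any population. Of the enzymes of its ligand, Ch25h did not pass the test between CD103- cells and cDC2 in either organ, and Cyp7b1 did in both. Cyp7b1 averaged 11.44 in thymic CD103- cells against 8.95 in thymic cDC2 (2.48 ± 0.47, adjusted p = 0.00148) and 9.79 in splenic CD103- cells against 5.18 in splenic cDC2 (at least 4.00, adjusted p = 2.17e-06). In macrophages Cyp7b1 was at or below background in both organs, while Ch25h averaged 11.52 in thymic and 8.13 in splenic macrophages, higher than the dendritic cell mean by 3.46 ± 0.27 in the thymus (adjusted p = 6.3e-09) and by at least 2.07 in the spleen (adjusted p = 2.32e-07).

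Gpr18 is the neighbour of Gpr183 on the minus strand of chromosome 15 in GRCr8, and lipid ligands have been proposed for it. It too was lower in cDC1 than in CD103- cells of both organs. Gpr18 read 7.80 and 8.08 in thymic CD103- cells against 6.28 and 6.50 in thymic cDC1 (1.55 ± 0.28, adjusted p = 0.000423), and 7.74 and 7.82 in splenic CD103- cells against 5.78 and 6.60 in splenic cDC1 (1.59 ± 0.28, adjusted p = 0.000342). In macrophages, where Gpr183 was low, Gpr18 read 7.75 and 8.10 in the thymus and 7.56 and 8.04 in the spleen. The correlation of the 2 genes over 8 group means was 0.51, as a description. Their windows are shown because these neighbours shared the low level in cDC1, with capitals for the same 5 motifs.
Gpr183: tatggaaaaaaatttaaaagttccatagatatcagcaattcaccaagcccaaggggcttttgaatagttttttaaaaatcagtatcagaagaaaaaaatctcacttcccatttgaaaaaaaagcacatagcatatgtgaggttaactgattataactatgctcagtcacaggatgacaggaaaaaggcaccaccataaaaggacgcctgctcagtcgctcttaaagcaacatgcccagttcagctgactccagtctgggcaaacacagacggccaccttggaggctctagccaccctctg
Gpr18: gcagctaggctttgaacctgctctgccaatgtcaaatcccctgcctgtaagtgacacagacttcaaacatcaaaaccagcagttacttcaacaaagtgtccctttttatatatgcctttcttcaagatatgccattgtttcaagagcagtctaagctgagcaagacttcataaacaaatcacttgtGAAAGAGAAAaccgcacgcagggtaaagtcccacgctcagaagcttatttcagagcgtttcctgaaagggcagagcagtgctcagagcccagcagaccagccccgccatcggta
The Gpr183 window (chr15:105457077-105457376, minus strand) holds no match and the Gpr18 window (chr15:105407763-105408062, minus strand) holds 1 interferon element match. The sequences of all 4 windows are those of RefSeq.

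The receptors for other lysolipids were less marked. Gpr174, which like Gpr34 binds lysophosphatidylserine, read 6.89 and 6.80 in splenic CD103- cells against 4.84 and 4.84 in splenic cDC1, at least 1.05 higher (adjusted p = 0.000323), and 5.80 and 6.72 in thymic CD103- cells against 4.45 and 4.25 in thymic macrophages, at least 0.47 higher (adjusted p = 0.000209). Gpr55, for which lysophosphatidylinositol is the proposed ligand, was above background only in cDC1, at 6.03 and 6.42 in the thymus and 7.41 and 6.85 in the spleen. The cDC2 minus cDC1 difference of Gpr55 was -1.34 or below in the spleen (adjusted p = 0.000168).

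The proton-sensing receptors Gpr4, Gpr65 and Gpr132, which respond to acid outside the cell (Gpr132 also to lysolipids and lactate in some reports), were lower in the thymus than in the spleen in all 4 populations. Gpr132 read 13.70 and 13.07 in thymic CD103- cells against 16.68 and 16.43 in splenic CD103- cells, and 13.02 and 12.50 in thymic cDC2 against 17.09 and 16.93 in splenic cDC2. Its thymus minus spleen differences were -3.17 ± 0.30 in CD103- cells (adjusted p = 9.23e-07), -4.08 ± 0.30 in macrophages (adjusted p = 2.41e-08), -4.25 ± 0.30 in cDC2 (adjusted p = 1.22e-08) and -3.27 ± 0.30 in cDC1 (adjusted p = 4.57e-07). In no population did thymic and splenic arrays overlap. For Gpr4 the differences were -3.59 ± 0.36 in CD103- cells (adjusted p = 1.81e-06), -2.16 or below in macrophages (adjusted p = 4.47e-05), -3.09 ± 0.36 in cDC2 (adjusted p = 5.33e-06) and -3.19 ± 0.36 in cDC1 (adjusted p = 5.15e-06). For Gpr65 they lay between -2.23 and -1.46, with adjusted p-values of at most 6.83e-05. These receptors were also lower in macrophages than in dendritic cells: Gpr132 by -5.58 ± 0.24 in the thymus (adjusted p = 2.72e-12) and -5.07 ± 0.24 in the spleen (adjusted p = 1.15e-11), Gpr65 by -3.31 ± 0.17 in the thymus (adjusted p = 1.76e-11) and -2.71 ± 0.17 in the spleen (adjusted p = 2.98e-10), and Gpr4 by -2.77 or below in the thymus (adjusted p = 3.53e-08) and -3.90 ± 0.29 in the spleen (adjusted p = 3.33e-09).

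Among the dendritic cells Gpr4 was lower in CD103- cells than in cDC1, at 8.02 and 7.21 in thymic CD103- cells against 10.01 and 9.70 in thymic cDC1 (-2.24 ± 0.36, adjusted p = 0.000129) and 11.72 and 10.69 in splenic CD103- cells against 13.34 and 12.75 in splenic cDC1 (-1.84 ± 0.36, adjusted p = 0.000962).

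**Figure D4:**
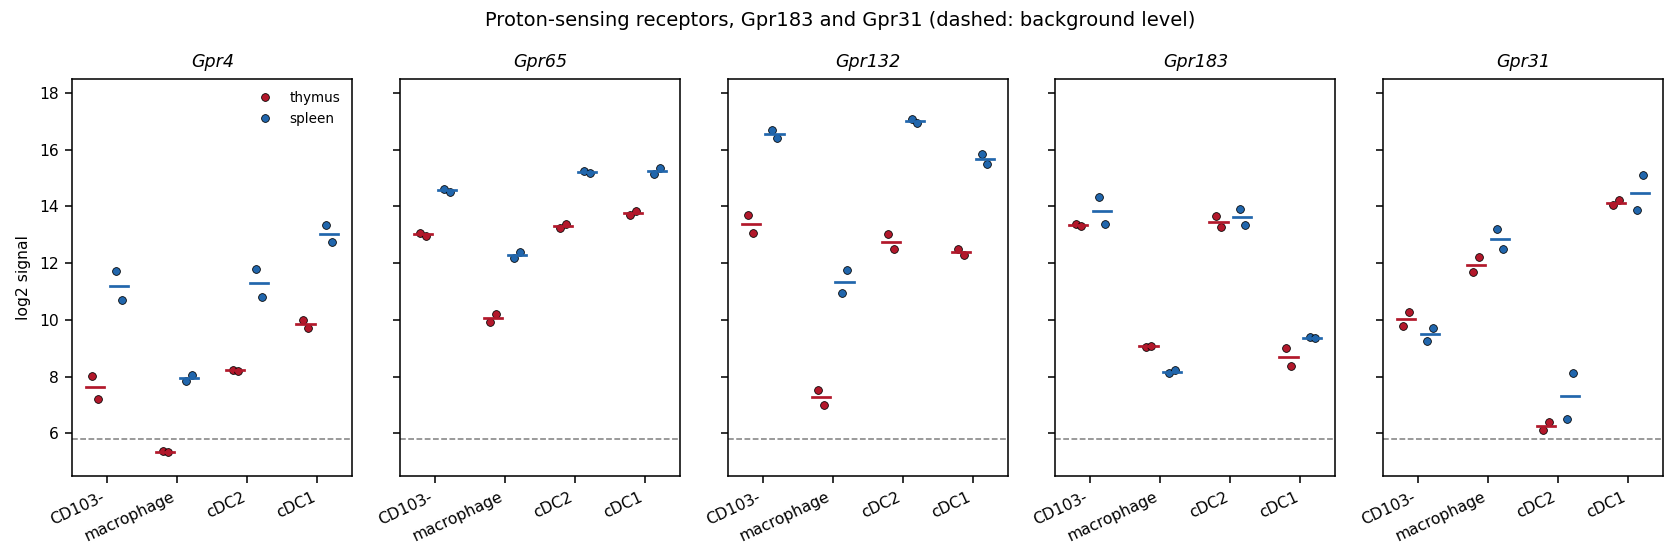
Points are the log2 signals of single arrays for Gpr4, Gpr65, Gpr132, Gpr183 and Gpr31, short lines are group means and the dashed line is the background level, with thymus in red and spleen in blue. Blue points lie above red points in every population for Gpr4, Gpr65 and Gpr132, while Gpr183 is low in cDC1 and Gpr31 is high there.

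The receptors for fatty acids and metabolites included the member with the widest gap between cDC2 and cDC1 of the thymus. Gpr31, for which a lipoxygenase product is the proposed ligand in human cells, read 9.79 and 10.29 in thymic CD103- cells, 11.68 and 12.22 in thymic macrophages, 6.10 and 6.41 in thymic cDC2 and 14.06 and 14.21 in thymic cDC1. In the spleen it read 9.24 and 9.73 in CD103- cells, 13.20 and 12.50 in macrophages, 6.50 and 8.13 in cDC2 and 13.86 and 15.10 in cDC1. In both organs the order of the populations was the same, with cDC2 lowest, CD103- cells and macrophages between and cDC1 highest, and no 2 neighbours overlapped. Between cDC2 and cDC1 the difference was -7.88 ± 0.44 in the thymus (adjusted p = 5.64e-10) and -7.17 ± 0.44 in the spleen (adjusted p = 1.48e-09). The CD103- minus cDC2 difference was 3.79 ± 0.44 in the thymus (adjusted p = 1.05e-05), and in the spleen 2.17 (adjusted p = 0.00324), which was 1.35 with an adjusted p of 0.0815 without replicate 1 of splenic cDC2. Gpr35, whose proposed ligands include kynurenic acid, read 12.99 and 12.24 in thymic CD103- cells against 9.81 and 8.47 in thymic cDC2 (3.48 ± 0.39, adjusted p = 5.88e-06), and 11.22 and 10.47 in splenic CD103- cells against 9.99 and 9.58 in splenic cDC2, which did not pass the test. The lactate receptor, listed on the array as Gpr81 and in RefSeq as Hcar1, read 9.26 and 9.34 in thymic cDC1 and at most 5.15 on the other 14 arrays. Its thymus minus spleen difference in cDC1 was at least 3.51 (adjusted p = 3.66e-09). The B cell genes were also higher in thymic than in splenic cDC1, as given above, and their part in this difference was not tested. Gpr84, a receptor for medium-chain fatty acids, had group means of 3.42 to 4.79, all below background.

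Of the prostaglandin E receptors, Ptger2 and Ptger4, both Gs-coupled, were above background in every group, and Ptger1 (means 4.11 to 5.43) and Ptger3 (3.89 to 5.21) in none. Ptger4 read 12.32 and 11.21 in thymic CD103- cells, 6.85 and 7.18 in thymic macrophages, 11.67 and 11.00 in thymic cDC2 and 12.69 and 11.77 in thymic cDC1. The splenic arrays gave 12.75 and 12.22 in CD103- cells, 8.18 and 8.35 in macrophages, 8.40 and 8.59 in cDC2 and 10.39 and 10.02 in cDC1. Splenic CD103- cells were thus the only splenic group above 10.39. The CD103- minus cDC2 difference was 3.99 ± 0.35 in the spleen (adjusted p = 4.14e-07) and did not pass the test in the thymus, and the difference between the organs was itself called (-3.56 ± 0.50, adjusted p = 0.0003). Ptger2 was lowest in cDC2, at 9.61 and 9.08 in thymic CD103- cells against 6.47 and 6.62 in thymic cDC2 (2.80 ± 0.38, adjusted p = 5.77e-05). The cDC2 minus cDC1 difference of Ptger2 was -3.46 ± 0.38 in the thymus (adjusted p = 2.74e-06) and -2.90 ± 0.38 in the spleen (adjusted p = 1.92e-05). Ptgs1, the constitutive enzyme of prostaglandin synthesis, averaged 12.68 in thymic CD103- cells against 8.16 in thymic cDC2 (4.51 ± 0.31, adjusted p = 2.22e-08), and the inducible Ptgs2 averaged 15.30 in thymic cDC2 against 10.64 in thymic cDC1 (4.66 ± 0.68, adjusted p = 7.32e-05) and 18.19 in splenic cDC2 against 9.46 in splenic cDC1 (8.72 ± 0.68, adjusted p = 2.93e-08). The SD of Ptgs2 between the 2 arrays was 2.32 in splenic and 1.02 in thymic cDC1, and the SE is pooled over all groups. Hpgd, which breaks prostaglandins down, averaged 13.82 in thymic and 10.60 in splenic macrophages, at least 7.93 above the dendritic cell mean in the thymus (adjusted p = 2.31e-14) and at least 4.81 in the spleen (adjusted p = 4.21e-12).

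Of the adenosine receptors, Adora1 was higher in macrophages than in any dendritic cell group. Adora1, Gi-coupled, read 10.78 and 10.93 in thymic macrophages, and in the other thymic groups 6.99 and 6.70 in CD103- cells, 5.71 and 5.62 in cDC2 and 5.28 and 5.70 in cDC1. It read 13.69 and 13.41 in splenic macrophages, and in the spleen 6.63 and 7.63 in CD103- cells, 5.63 and 5.78 in cDC2 and 5.37 and 5.06 in cDC1. The macrophage minus dendritic cell difference was at least 4.71 in the thymus (adjusted p = 6.87e-12) and at least 7.31 in the spleen (adjusted p = 2.79e-14). Among the 3 groups counted as dendritic cells, Adora1 was above background only in the DC-like CD103- cells. Its difference there from cDC1 was at least 1.06 in the thymus (adjusted p = 0.00162) and at least 1.34 in the spleen (adjusted p = 5.41e-05). Of 8 macrophage genes, 6 were also higher and 1 lower in CD103- cells than in cDC1 of each organ. The part of macrophage RNA in this Adora1 difference was not tested. Adora3, also Gi-coupled, was high in cDC1 and in splenic macrophages. It read 6.20 and 6.16 in thymic CD103- cells, 6.39 and 6.53 in thymic macrophages, 6.72 and 7.39 in thymic cDC2 and 10.21 and 10.97 in thymic cDC1. In the spleen it read 7.69 and 8.51 in CD103- cells, 12.01 and 11.88 in macrophages, 8.47 and 9.66 in cDC2 and 11.50 and 12.59 in cDC1. The thymus minus spleen difference of macrophages was -5.49 ± 0.40 (adjusted p = 2.44e-08). The cDC1 markers Xcr1 and Clec9a averaged 10.25 and 8.19 in thymic macrophages, against 11.54 and 10.62 in splenic macrophages, and splenic macrophages carried the red cell, NK cell and B cell genes given above. The part of such RNA in the Adora3 level was not tested. Adora2a, Gs-coupled, read 6.54 and 7.22 in thymic macrophages against 8.61 to 10.04 in thymic dendritic cells (-2.75 ± 0.33, adjusted p = 1.05e-06). In the spleen the macrophage minus dendritic cell difference of Adora2a did not pass the test (0.73 ± 0.33, adjusted p = 0.0749), and Adora2b (means 4.08 to 4.50) was below background throughout. Ada, which removes adenosine, averaged 9.91 in thymic and 8.52 in splenic macrophages and was at or below background in all dendritic cell groups, at least 4.12 higher in the thymus (adjusted p = 5.72e-13) and at least 2.73 in the spleen (adjusted p = 4.21e-12).

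Hrh2, the Gs-coupled histamine receptor, was the only histamine receptor above background, since Hrh1, Hrh3 and Hrh4 had group means of at most 4.88, 5.17 and 4.11. It read 5.02 and 5.72 in thymic CD103- cells, 5.02 and 5.10 in thymic macrophages, 7.42 and 7.90 in thymic cDC2 and 9.11 and 9.71 in thymic cDC1. Splenic cells gave 9.90 and 10.52 in CD103- cells, 7.34 and 7.02 in macrophages, 13.22 and 14.17 in cDC2 and 10.23 and 12.11 in cDC1. The order of cDC2 and cDC1 was reversed between the organs: the cDC2 minus cDC1 difference was -1.75 in the thymus (adjusted p = 0.0138) and 2.52 in the spleen (adjusted p = 0.000578), which was 1.58 without replicate 1 of splenic cDC1. The thymic call was lost without replicate 1 of cDC2 (-1.51, adjusted p = 0.131) or replicate 2 of cDC1 (-1.45, adjusted p = 0.147). That difference between organs was not tested as such. The CD103- minus cDC2 difference was -1.87 or below in the thymus (adjusted p = 0.00236) and -3.48 ± 0.46 in the spleen (adjusted p = 4.18e-05), and thymic cDC2 were lower than splenic cDC2 by -6.04 ± 0.46 (adjusted p = 3.07e-08). Hdc, which makes histamine, was below background in all 8 groups (means 3.81 to 4.62).

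**Figure D5:**
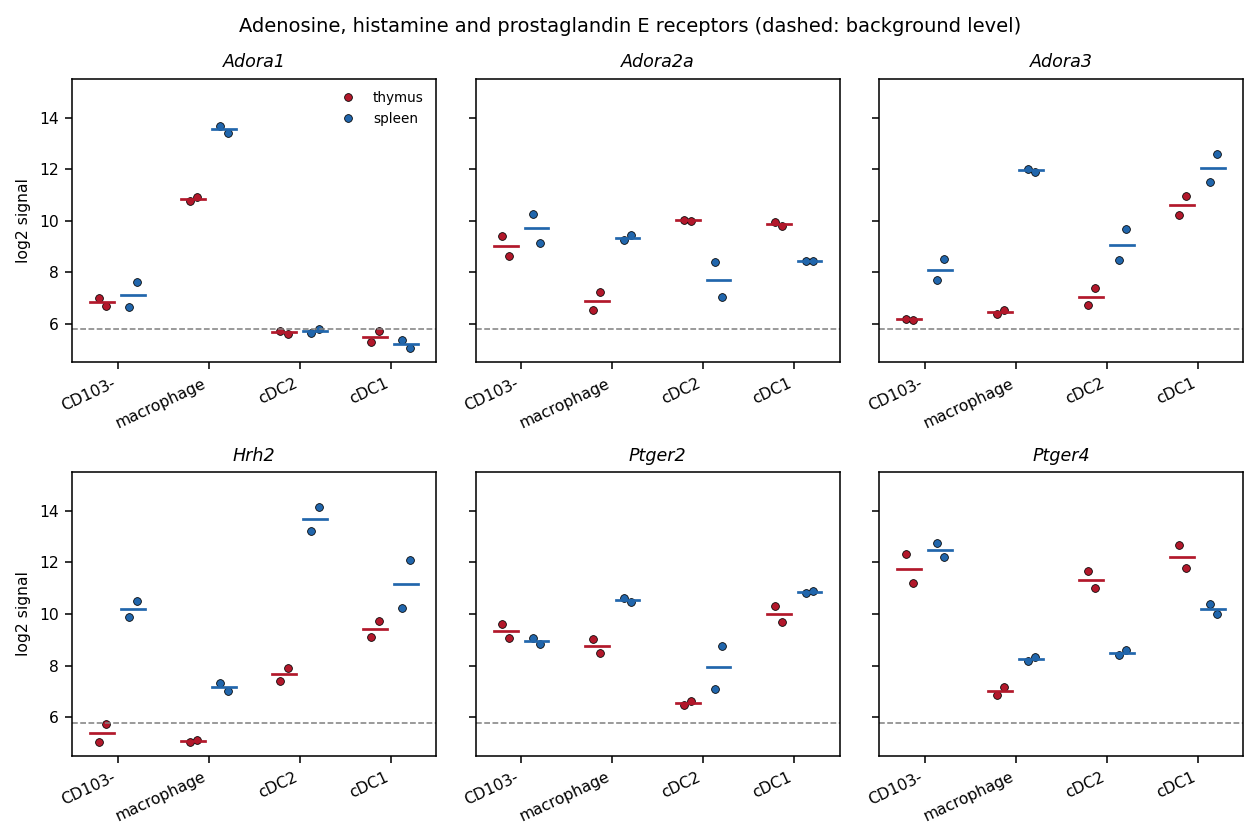
Points are the log2 signals of single arrays for 3 adenosine receptors, Hrh2 and 2 prostaglandin E receptors, short lines are group means and the dashed line is the background level, with thymus in red and spleen in blue. Adora1 is highest in macrophages, Hrh2 in splenic cDC2, and Ptger4 is low in macrophages of both organs and in splenic cDC2.

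Several other receptors were highest in cDC1 of at least 1 organ. Gpr33, a relative of chemoattractant receptors that RefSeq lists for this rat assembly as the pseudogene Gpr33-ps1, read 7.92 and 7.27 in thymic CD103- cells, 5.94 and 6.46 in thymic macrophages, 8.19 and 7.78 in thymic cDC2 and 10.75 and 10.15 in thymic cDC1. In the spleen it read 7.82 and 7.79 in CD103- cells, 5.66 and 6.67 in macrophages, 7.28 and 6.99 in cDC2 and 13.02 and 11.68 in cDC1. The cDC2 minus cDC1 difference was -2.46 ± 0.39 in the thymus (adjusted p = 0.000187) and -5.21 ± 0.39 in the spleen (adjusted p = 1.85e-08). Gpr157, an orphan receptor, read 7.80 and 8.25 in thymic CD103- cells against 11.29 and 11.92 in thymic cDC1 (-3.58 ± 0.31, adjusted p = 9.48e-08), and 8.04 and 7.46 in splenic CD103- cells against 11.63 and 10.98 in splenic cDC1 (-3.56 ± 0.31, adjusted p = 1.1e-07). In the spleen Gpr157 was also lower in CD103- cells than in cDC2, at 10.69 and 10.69 (-2.94 ± 0.31, adjusted p = 3.4e-06). Gpr141, an orphan receptor, read 7.11 and 7.05 in splenic cDC2 against 8.71 and 9.38 in splenic cDC1, its highest group (-1.97 ± 0.27, adjusted p = 3.32e-05). In the thymus Gpr141 averaged 7.37 in cDC2 against 7.21 in cDC1, which did not pass the test. Gpr160, also an orphan, read 7.97 and 8.14 in splenic CD103- cells against 9.34 and 9.97 in splenic cDC1 (-1.60 ± 0.25, adjusted p = 9.63e-05). In the thymus Gpr160 averaged 9.25 in CD103- cells against 9.34 in cDC1, which did not pass the test. Gpr146, a receptor linked to cholesterol metabolism in the liver, ran the other way and was lowest in cDC1, with a CD103- minus cDC1 difference of 2.96 ± 0.28 in the thymus (adjusted p = 3.41e-07) and 2.92 ± 0.28 in the spleen (adjusted p = 4.04e-07).

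Others differed between cDC2 and another population or between the organs. Gpr15, a homing receptor known from gut T cells, read 4.30 and 4.90 in thymic CD103- cells against 6.89 and 7.49 in thymic cDC2 (-1.40 or below, adjusted p = 2.21e-06), and 7.20 and 6.91 in splenic CD103- cells against 9.02 and 8.49 in splenic cDC2 (-1.70 ± 0.26, adjusted p = 0.000247). Gpr39, a zinc receptor, read 5.87 and 5.31 in thymic cDC2 against 10.64 and 11.47 in splenic cDC2, its highest group, a thymus minus spleen difference of -5.26 or below (adjusted p = 2.97e-09). Gpr52, an orphan receptor best known from the striatum, was higher in the thymus in cDC1, at 11.07 and 12.01 against 9.38 and 8.98 in splenic cDC1 (2.36 ± 0.30, adjusted p = 2.28e-05). Gpr155, a lysosomal protein described as a cholesterol sensor, was higher in the thymus in macrophages (at least 3.45, adjusted p = 2.1e-07) and in cDC2 (3.24 ± 0.30, adjusted p = 3.68e-07). Gpr171, for which a neuropeptide ligand has been proposed, read 12.48 and 12.08 in thymic cDC2 against 7.46 and 8.58 in splenic cDC2 (4.26 ± 0.46, adjusted p = 2.11e-06), and 10.96 and 10.57 in splenic CD103- cells, above splenic cDC2 by 2.75 ± 0.46 (adjusted p = 0.000486).

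Genes that carry the signals of these receptors were counted by list, beside the shares of all clusters called between macrophages and dendritic cells (21.5% higher and 25.4% lower in thymic macrophages, 21% and 27.4% in splenic ones). Of 17 genes of cyclic AMP handling (adenylyl cyclases, phosphodiesterases, protein kinase A subunits and their target factors), 1 was higher and 12 were lower in thymic macrophages, with a median difference of -1.05, and 3 were higher and 13 lower in splenic macrophages, with a median of -1.11, beside medians of -0.13 and -0.19 over all clusters. Pde4b, a phosphodiesterase, was lower by -4.91 ± 0.22 in the thymus (adjusted p = 4.85e-12) and -3.22 ± 0.22 in the spleen (adjusted p = 1.4e-09). The single gene higher in thymic macrophages was Adcy4, an adenylyl cyclase (1.75 ± 0.23, adjusted p = 4.74e-06). Of 23 G protein subunit genes, 9 were higher and 9 lower in thymic macrophages and 8 higher and 9 lower in splenic ones (all clusters as above). Gnb4, a beta subunit, was lower by -4.61 ± 0.19 in the thymus (adjusted p = 1.49e-12) and -4.14 ± 0.19 in the spleen (adjusted p = 7.55e-12), and Gng10, a gamma subunit, was higher by 3.28 ± 0.18 in the thymus (adjusted p = 4.83e-11) and 3.36 ± 0.18 in the spleen (adjusted p = 4.69e-11). Of 15 genes of receptor desensitisation, 4 were higher and 6 lower in thymic macrophages and 3 higher and 7 lower in splenic ones, with medians of -0.16 and -0.38 beside -0.13 and -0.19 over all clusters. Adrbk2, a receptor kinase, was lower in both (-2.66 ± 0.20 in the thymus, adjusted p = 3.42e-09, and -2.23 ± 0.20 in the spleen, adjusted p = 4.01e-08). Arrb1, an arrestin, was lower in thymic than in splenic cDC2 by -4.28 ± 0.28 (adjusted p = 5.47e-09). Between CD103- cells and cDC2, 5.34% of all clusters were up and 4.91% down in thymic CD103- cells, and 4.81% and 4.21% in splenic ones. In that comparison the desensitisation list had 3 genes up and 1 down in thymic CD103- cells, and 1 up and 2 down in splenic ones. Between those populations, 3 of the 17 cyclic AMP genes were lower and none higher in the thymus, and 4 were lower and 1 higher in the spleen. Prkar2b, a protein kinase A subunit, was lower in both (-1.78 ± 0.22 in thymic cells with an adjusted p of 1.42e-05, and -1.26 ± 0.22 in splenic cells with an adjusted p of 0.000618).

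Gpr137, Gpr137b and Htra2, which carry names of the rule without being cell surface receptors, were also above background in every group. The lysosomal membrane protein Gpr137 was higher in macrophages, by 1.64 ± 0.26 in the thymus (adjusted p = 4e-05) and 2.21 ± 0.26 in the spleen (adjusted p = 1.31e-06), and Gpr137b was lower in the thymus in cDC2 (-2.29 ± 0.26, adjusted p = 3.92e-06) and in CD103- cells (-1.53 ± 0.26, adjusted p = 0.000503). The mitochondrial protease Htra2 averaged 10.81 in thymic and 10.87 in splenic macrophages against 8.01 to 9.52 in the dendritic cell groups.

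Of 31 genes for ligand synthesis and removal, 12 were higher and 9 lower in thymic macrophages than in dendritic cells, and 10 higher and 8 lower in splenic ones. Of all clusters, 46.9% were called in the thymus and 48.3% in the spleen. Enpp2, which encodes autotaxin, the enzyme that makes lysophosphatidic acid, averaged 11.32 in thymic and 10.82 in splenic macrophages and at most 4.53 in the dendritic cell groups, at least 5.54 higher in the thymus (adjusted p = 3.45e-14) and at least 5.04 in the spleen (adjusted p = 1.87e-14). Plpp1, a phosphatase that removes it, averaged 9.22 in thymic cDC2 against 12.27 in thymic cDC1 (-3.06 ± 0.23, adjusted p = 2.65e-08) and 8.48 in splenic cDC2 against 14.04 in splenic cDC1 (-5.56 ± 0.23, adjusted p = 1.49e-11). Among 19 measured genes of a list of lipid mediator receptors, of which only Gpr81 is also a member, the test called 2 up and 2 down in CD103- cells against cDC2 of the thymus, and 3 up and 3 down in the spleen. The shares of all clusters were 5.34% up and 4.91% down in the thymus, and 4.81% and 4.21% in the spleen. Niacr1, the niacin and ketone body receptor now named Hcar2, averaged 13.36 in splenic CD103- cells against 7.02 in splenic cDC2 (6.34 ± 0.37, adjusted p = 2.03e-09), and 17.00 in splenic macrophages. Cysltr1, a receptor for cysteinyl leukotrienes, was higher in CD103- cells than in cDC2 in both organs, by 1.88 ± 0.31 in the thymus (adjusted p = 0.000422) and 1.75 ± 0.31 in the spleen (adjusted p = 0.00101), and the short-chain fatty acid receptor Ffar2 was lower, by -2.12 ± 0.27 in the thymus (adjusted p = 2.45e-05) and -2.02 ± 0.27 in the spleen (adjusted p = 4.4e-05).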

How the data were processed

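RNA of 16 sorted samples (8 groups of 2) was measured on Clariom S rat arrays. The deposited values are log2 signals per transcript cluster, made with Transcriptome Analysis Console per the submitters' processing notes (version, background correction and normalization are not given in the sources used here), and the deposited tables held identical values. Array medians were 5.87 to 5.95, and the root mean square difference between replicates 0.373 to 0.457. The number of arrays limits the precision.

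All 23188 clusters were fitted together in limma 3.58.1 (R 4.3.3; lmFit, eBayes, 8 group means, 8 residual and 9.21 prior degrees of freedom), two-sided, with Benjamini-Hochberg adjustment over all clusters in each of 16 contrasts and a call at an adjusted p under 0.05; no list was adjusted alone. The fit was tested on simulated data. Members, gene lists (G protein subunits, cyclic AMP handling, ligand synthesis and removal, receptor desensitisation, other lipid mediator receptors, cell type markers) and tests were chosen with earlier results of these data known. The text names 36 receptors set by name, up to 6 called members with the largest difference per direction and contrast, and the 5 genes most like Gpr82, Lpar3 and Htr1b, of which some are not reported here. Alternatives were median centring, quantile normalization, a filter on dim clusters, array weights, eBayes with trend and robust, only the arrays compared, the replicate number as a block, a mean over a gene's clusters, a size limit and each array left out. Of 120 members, 113 matched RefSeq (GRCr8) by symbol and 4 by an older name.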

Additional observations from a re-analysis of the deposited data

Results flagged for a closer look

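The difference between CD103- cells and cDC2 was unequal in the 2 organs (an interaction term in limma, thymus minus spleen, Benjamini-Hochberg adjusted) for 9 members listed here. Ptger4 gave -3.56 (adjusted p = 0.0003), with 0.43 in the thymus and 3.99 in the spleen. Gpr39 gave 2.94 (adjusted p = 0.00115), with 0.33 in the thymus and -2.61 in the spleen. Adora2a gave -3.00 (adjusted p = 0.00376), with -1.0 in the thymus and 2.00 in the spleen. S1pr5 gave -2.75 (adjusted p = 0.00727), and -1.82 without replicate 1 of splenic CD103- cells. Htr2a gave -2.66 (adjusted p = 0.00916), -1.77 without replicate 2 of thymic CD103- cells and -2.38 with an adjusted p of 0.0537 without replicate 1 of splenic CD103- cells. The last 4 were called in the full table but not in 3 to 5 of the refits that leave out 1 array: Gpr35 with 2.42 (adjusted p = 0.0163, and 1.75 to 3.08 over these refits), Htr2b with 1.44 (adjusted p = 0.0172, and 1.21 to 1.67), Gpr141 with -1.71 (adjusted p = 0.0151, and -2.04 to -1.38) and Gpr155 with -1.81 (adjusted p = 0.0201, and -2.23 to -1.39). For Gpr39, S1pr5, Htr2a and Htr2b at least 1 of the 4 groups was at or below background, so these sizes are fitted values and not bounds.

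The difference between macrophages and the mean of the 3 dendritic cell groups was unequal in the 2 organs for 12 members listed here. Htr1b gave 4.97 (adjusted p = 3.96e-08), with macrophages above dendritic cells in the thymus (2.40) and below them in the spleen (-2.58). Adora3 gave -3.69 (adjusted p = 2.53e-05), with -1.48 in thymic and 2.21 in splenic cells, and Gpr137b gave 1.55 (adjusted p = 0.00166), with 0.57 in the thymus and -0.99 in the spleen. S1pr5 gave -4.77 (adjusted p = 1.22e-06), S1pr3 gave -2.64 (adjusted p = 3.89e-06) and Htr2b gave 3.54 (adjusted p = 7.27e-08). Adora2a gave -3.48 (adjusted p = 4.46e-05), with -2.75 in thymic and 0.73 in splenic cells, and Adora1 gave -2.68 (adjusted p = 1.61e-05), being higher in the macrophages of both organs. Ptger4 gave -2.63 (adjusted p = 0.000233), being lower in the macrophages of both organs, with -4.76 in the thymus and -2.13 in the spleen. Gpr39 gave 2.10 (adjusted p = 0.00127). Hrh2 gave 2.09 (adjusted p = 0.0133), a call lost without either replicate of thymic macrophages (2.13 and 2.05) or replicate 2 of splenic macrophages (1.93). Gpr155 gave 1.51 (adjusted p = 0.00654), a call lost without replicate 2 of thymic (1.35) or replicate 1 of splenic macrophages (1.23). For S1pr5, S1pr3, Htr2b, Adora1, Gpr39, Hrh2 and Gpr155 at least 1 of the 8 groups was at or below background, so these sizes too are fitted values and not bounds.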

How the results depend on the processing

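The precision is limited by 2 arrays per group. Over 493 called differences of 80 members (Htra symbols included), 6154 recomputations under the alternatives kept the direction and the call in 5619 cases and reversed none, and 170 differences lost the call at least once, 112 of them only with an array left out. Quantile normalization ended 32 calls, fitting only the arrays compared 35, array weights 6, median centring 4, averaging a gene's clusters 3 and eBayes with trend and robust 1. Nothing in the labels says that replicate numbers pair the samples, and 4 of 28 pairs of groups had a correlation of deviations over 0.1 (range -0.068 to 0.182): the 3 pairs among splenic CD103- cells, cDC2 and cDC1 (0.155 to 0.182) and thymic CD103- cells with cDC2 (0.166). With the replicate number as a block 521 differences were called in place of 493, with 2 lost (Gpr108 in the thymus and Htr1b in the spleen, CD103- cells against cDC2) and 30 gained. A block within each of those 2 sets of groups, chosen after seeing the data, called 537, with 3 lost (Gpr108 in thymic CD103- cells against cDC2 and against macrophages, Gpr12 in thymic macrophages against dendritic cells) and 47 gained, and 22 members in place of 17 for splenic CD103- cells against cDC2. For 617 called differences of pathway genes, 6986 of 7665 recomputations kept direction and call and none reversed. Counting only differences of at least 1 log2 unit gave 38 members for macrophages against dendritic cells in the thymus (58 without that limit) and 34 in the spleen (55 without it), since the rule removes small differences. With 1 array left out, the count for thymus against spleen ran between 15 and 18 in cDC1 (23 with all arrays), with 15 without replicate 1 of thymic cDC1 and 18 without replicate 1 of splenic cDC1, the count for the unequal difference of CD103- cells and cDC2 between 5 and 11 (11 with all arrays), and that of macrophages and dendritic cells between 14 and 23 (22 with all arrays), and the cause was not tested.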
